A study of Mus musculus with 8 samples.

Results

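The 10 genes described here are Nfe2l2, which encodes the transcription factor NRF2, Keap1, which encodes its inhibitor, and 8 genes of the antioxidant response that NRF2 is known to control: Hmox1, Gclc, Gclm, Txnrd1, Srxn1, Gsr, Osgin1 and Sqstm1. They were taken as a named list that leaves out genes that NRF2 shares with the aryl hydrocarbon receptor (AhR), and were found by symbol among the 24460 genes in the count tables. All 10 passed the filter on low counts, as did 14296 genes in all. Wild type mouse embryonic fibroblasts (MEFs) were grown without RHPS4 (0 µM, n = 3 libraries), at 2 µM (n = 3) or at 10 µM (n = 2). RHPS4 is a small molecule that binds and stabilizes G-quadruplexes, the structures that guanine-rich DNA or RNA can fold into. Stranded libraries of ribo-depleted total RNA were sequenced, to ask how gene expression changed with the dose of this ligand. The cells at all doses shared the same medium and carried no named allele or transgene, and their strain, their passage and the exposure time of these libraries are not given in the sources used here. The labels do not say whether libraries of a dose came from separate cultures, so that p values measure the spread between these libraries only.

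In cells without oxidative stress, KEAP1 holds NRF2 in the cytoplasm and presents it to a CUL3 ubiquitin ligase for degradation. Oxidants and electrophiles modify cysteines of KEAP1, NRF2 then accumulates, pairs with a small MAF protein and binds antioxidant response elements (AREs) near genes for glutathione synthesis, thioredoxin recycling, heme breakdown and export of toxins. Much of this control acts on the NRF2 protein, which was not measured here.

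The core of the ARE, TGACNNNGC, was searched on both strands from 250 bases before to 50 bases after each RefSeq start. Of the 10 genes, 7 had an entry in the RefSeq promoter table (GRCm38.p6), and Hmox1, Gclc and Gsr had none. The core was present in 4 of the 7, against 14% of the 27025 genes of that table and 12.4% of its 32851 windows. Matches before the start are printed for 3 genes with their surroundings, since this is the element that NRF2 binds. Each is in the direction of its gene, with the core in capitals. In Gclm and Txnrd1 the core lies on the opposite strand.
Nfe2l2: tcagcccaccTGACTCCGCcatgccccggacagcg
Gclm: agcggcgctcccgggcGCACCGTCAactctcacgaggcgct
Txnrd1: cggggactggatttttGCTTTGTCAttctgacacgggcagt
The Nfe2l2 stretch is at chr2:75704879-75704913 on the minus strand, with its core at −240 from the start. It lies upstream of Nfe2l2 and inside an exon of the divergent transcript E030042O20Rik in GENCODE. The Gclm stretch is at chr3:122245407-122245447 on the plus strand, with its core at −134, and touches no annotated gene. The Txnrd1 stretch is at chr10:82859098-82859138 on the plus strand, with its core at −92 from the second of 3 starts, so that it lies within an intron of the longer transcripts. Srxn1 had its match at +29 from the start. Keap1, Osgin1 and Sqstm1 had no match in this window. The narrower TGACTCAGC, a core that is also an AP-1 site, was in 0 of the 7 and in 0.503% of genes. Variants of the core with another letter in place of its C were not searched. GCGTG, the core of the xenobiotic response element that AhR binds, was in 5 of the 7 and in 35.2% of genes. A match of letters describes the window and shows no binding.

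The libraries held 10455965 to 26688121 counts, so that 3 counts, the limit that a count of 0 allows, amounted to between 0.112 and 0.287 CPM, counts scaled to library size. This limit covers counting error only, since PCR copies are not independent molecules. The levels given below are counts normalised with edgeR's TMM method, in CPM. Called genes had a fold change above 1.5 and an adjusted p below 0.01 in edgeR's quasi-likelihood test, fitted to all 8 libraries and adjusted over the 14296 tested genes. This gave 71 called genes at 2 µM, 442 at 10 µM and 788 for 10 against 2 µM. Mitochondrial transcripts, 39 features in all, made up 13.2% to 14.4% of the counts at 0 µM, 7.40% to 8.26% at 2 µM and 5.33% to 6.32% at 10 µM. Scaling to total counts alone, with no TMM factors, moved the median log2 fold change of all tested genes. It went from −0.0112 to 0.0677 at 2 µM, from 0.016 to 0.231 at 10 µM and from 0.0261 to 0.162 for 10 against 2 µM. Values under that scaling are read against these shifted medians. The split of called genes at 10 µM was 279 higher and 163 lower, against 846 and 68 with total counts and 235 and 269 with DESeq2. The first 0 µM replicate stood farthest from the other libraries of its dose, at a root mean square log2 difference of 0.399 against 0.329 and 0.323. Some of the results below that it moves, but not all, are also given without it. As an identity check, the summed level of 10 fibroblast markers was 14140 to 14590 CPM at 0 µM, 12920 to 13130 at 2 µM and 12510 to 12840 at 10 µM. The lists for epithelial, endothelial, leukocyte, muscle and neural cells summed to at most 56.6 CPM in any library, and no gene of them was at 0 in all libraries. Most of the neural sum was Map2, with means of 48.9, 45.65 and 44.1 CPM at 0, 2 and 10 µM. The fibroblast marker Thy1 was low, with means of 7.25, 5.68 and 6.88 CPM, near the leukocyte marker Cd68 at 5.75, 5.56 and 5.90 CPM. Of these markers, Pdgfrb was lower at 10 µM (log2 fold change −0.60) and Tubb3, a neuronal tubulin, was higher (1.42). No other marker that passed the filter on low counts was called at 10 µM. Of the 6 epithelial and 4 muscle markers, only 1 each passed that filter. The part of these shifts in the results below was not tested. In bulk RNA, fewer cells with a transcript and less of it per cell cannot be told apart.

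The 10 genes showed no common rise with RHPS4. At 2 µM 6 estimates were above 0 and 4 below, and at 10 µM 2 were above and 8 below. Over all tested genes, 51.8% and 47.9% were below 0. The 10 were chosen with earlier results of these data known, and genes that NRF2 shares with AhR were left out. Nqo1, Aldh3a1 and Slc7a11, called higher at 10 µM and described below, are outside this list. At 2 µM, 0 of the 10 genes were called, where 0.497% of all tested genes were, and 0 passed the adjusted p without a minimum fold, where 0.748% of all did. DESeq2 also called 0, and 3 of the 10 had an unadjusted p under 0.05 in edgeR, beside 21.3% of all tested genes. At 10 µM, 0 of the 10 were again called by edgeR and by DESeq2, beside 3.09% of all tested genes. With shares this low, a count of 0 is likely for any 10 genes, so it does not set these apart. Gsr and Srxn1 passed the adjusted p at 10 µM with fold changes under 1.5, both lower than at 0 µM, beside 5.23% of all genes in either direction, and 6 of the 10 had an unadjusted p under 0.05, beside 29.4% of all. Between 10 and 2 µM, 2 of the 10 were called, Gsr lower and Sqstm1 higher, beside 5.51% of all genes. Gclm and Srxn1 also passed the adjusted p there and were lower, which makes 4 of 10 beside 10.8% of all genes, and 7 of the 10 had an unadjusted p under 0.05, beside 36.5% of all. Of 16 alternative fits, Gclm kept this pass in 8 and Srxn1 in 7.

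**Figure D1:**
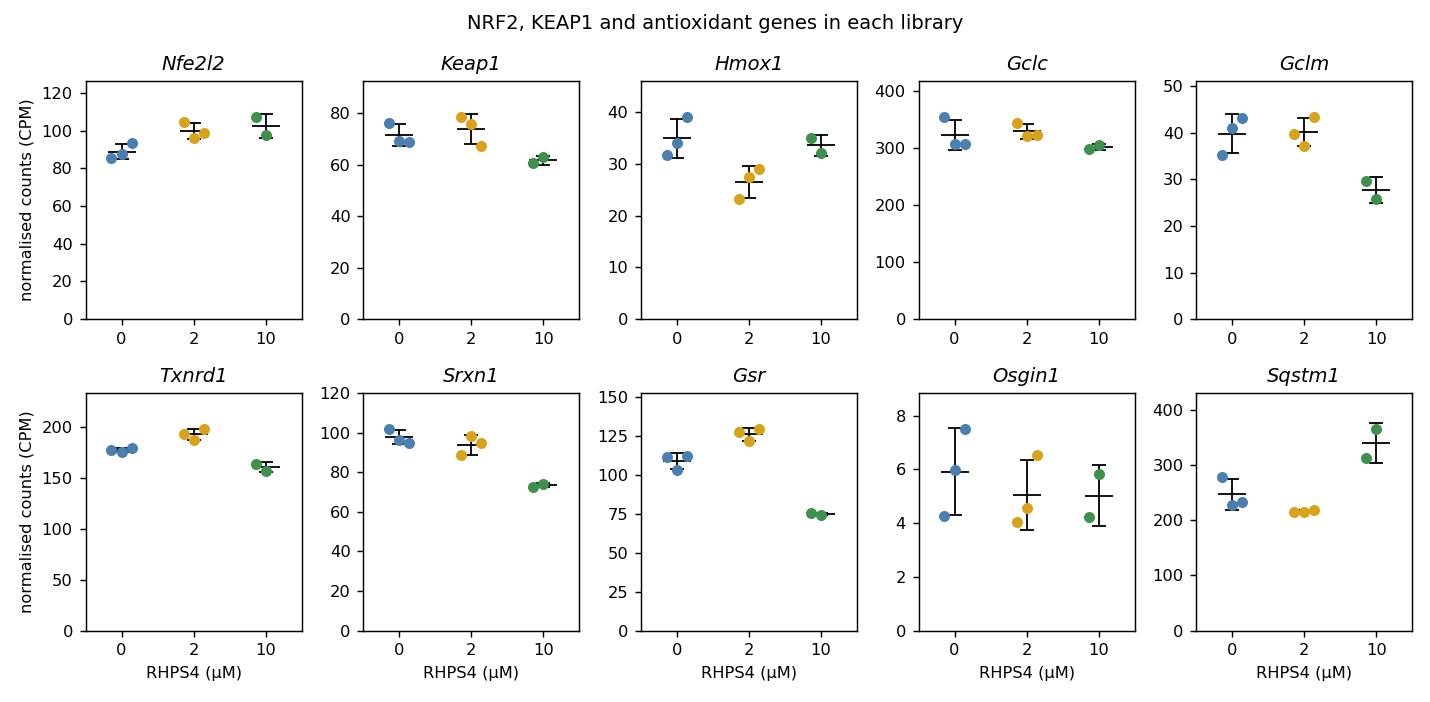
Normalised counts (CPM, linear axis from 0) of the 10 genes at 0, 2 and 10 µM RHPS4. Each point is a library, the horizontal line is the mean and the bars are 1 SD (n = 3, 3 and 2). Gsr lies at 74.4 and 75.3 CPM at 10 µM, below all 6 libraries of the other doses, and Sqstm1 lies above all 6 at 313 and 365 CPM.

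Whether the libraries of a dose separated was also counted without a model. At 2 µM, all libraries lay above all 0 µM libraries for 3 genes (Nfe2l2, Txnrd1 and Gsr) and below them for 2 (Hmox1 and Sqstm1), where this held for 12.7% and 12.9% of all tested genes. At 10 µM, both libraries lay above the 0 µM libraries for 2 genes (Nfe2l2 and Sqstm1) and below them for 6 (Keap1, Gclc, Gclm, Txnrd1, Srxn1 and Gsr), beside 22.9% and 20.0% of all genes. Against 2 µM the 10 µM libraries were above for 2 genes (Hmox1 and Sqstm1) and below for the same 6 genes, beside 27.0% and 24.9% of all genes. The median log2 fold change of the 10 genes was 0.017 at 2 µM and −0.175 at 10 µM, where the medians over all tested genes were −0.011 and 0.016. At 10 µM, 8 of the 10 estimates were negative, against 47.9% of all tested genes. With scaling to total counts, the estimates of Keap1, Hmox1, Gclc and Txnrd1 at 10 µM turned positive (0.0092, 0.15, 0.12 and 0.074), all still under the shifted median of 0.231, whereas Gclm, Srxn1, Gsr and Osgin1 stayed negative.

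The factor and its inhibitor come first. Nfe2l2 (chromosome 2, 75675513 to 75704641, minus strand) was at 85.5, 87.8 and 93.4 CPM at 0 µM, 105, 96.3 and 98.6 CPM at 2 µM and 107 and 97.8 CPM at 10 µM. All treated libraries lay above all untreated ones, and the doses of 2 and 10 µM overlapped. The log2 fold changes were 0.17 (SE 0.0714, adjusted p = 0.212) at 2 µM and 0.20 (SE 0.0793, adjusted p = 0.115) at 10 µM, so neither passed. Keap1 (chromosome 9, 21229730 to 21239361, minus strand), whose product is the substrate adaptor that binds NRF2, was at 76.4, 69.3 and 68.8 CPM at 0 µM, 78.5, 75.8 and 67.3 CPM at 2 µM and 60.6 and 63.0 CPM at 10 µM. The 10 µM libraries were the lowest of the 8, with a log2 fold change of −0.21 (SE 0.0888, adjusted p = 0.146) from 0 µM and −0.26 (SE 0.0892, adjusted p = 0.059) from 2 µM, neither past the threshold. The Keap1 exons share 510 bases with Gm16754 on the opposite strand, a gene not found by name or synonym among the counted genes. The strand setting of the counting is not given in the sources used here.

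Within a library the ratio of Nfe2l2 to Keap1 counts does not depend on scaling. Its log2 value was 0.16, 0.34 and 0.44 in the untreated libraries, 0.42, 0.345 and 0.55 in those at 2 µM, and 0.82 and 0.63 in those at 10 µM. Both 10 µM libraries lay above all others, whereas the 0 and 2 µM libraries overlapped. The means were 0.32 ± 0.14 (SD, n = 3), 0.44 ± 0.10 (SD, n = 3) and 0.73 ± 0.13 (SD, n = 2). The difference of 0.41 between 10 and 0 µM had p = 0.2 in the two-sided exact permutation test, the smallest p that 3 libraries against 2 allow, and 0.3 after adjustment over the 9 ratio tests. Between 2 and 0 µM the difference of 0.12 was within the spread of the replicates (exact permutation p = 0.4), and it was 0.046 without the first 0 µM replicate. The difference between 10 and 0 µM was 0.34 without it.

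Glutamate-cysteine ligase makes the first and rate-limiting step of glutathione synthesis, and its catalytic and modifier subunits are encoded by Gclc and Gclm. Gclc (chromosome 9, 77754535 to 77794485, plus strand) was at 353, 307 and 306 CPM at 0 µM, 343, 320 and 323 CPM at 2 µM and 297 and 305 CPM at 10 µM. The 10 µM libraries lay just below the lowest untreated one, and the log2 fold change of −0.10 (SE 0.0839, adjusted p = 0.478) did not pass. The highest value, 353 CPM, came from the first 0 µM replicate, and without it the estimate was −0.051 (adjusted p = 0.657). Gclm (chromosome 3, 122245557 to 122270732, plus strand) was at 35.2, 41.1 and 43.2 CPM at 0 µM, 39.8, 37.3 and 43.3 CPM at 2 µM and 29.7 and 25.8 CPM at 10 µM. It was lowest in both 10 µM libraries, with the 0 and 2 µM libraries overlapping.

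Gclm passed the adjusted p between 10 and 2 µM, at −0.53 (SE 0.1145, adjusted p = 0.00718), a fold change of 1.45 that is under the minimum. It did not pass with total counts, with the replicate block or without any one library other than the first or the third 0 µM replicate, at estimates of −0.40 to −0.68 and adjusted p values of up to 0.0568. Against 0 µM the same size, −0.53 (SE 0.114), had an adjusted p of 0.0116 and missed the threshold. The first 0 µM replicate was the lowest of the untreated libraries for this gene, and without it the estimate was −0.63 (adjusted p = 0.0023), past both thresholds. The Gclm exons share 244 bases with Gm6061 on the same strand and 296 bases with Gm17494 on the opposite strand. Neither was found by name or synonym among the counted genes, and an effect of the overlap on the Gclm counts was not tested. The log2 ratio of Gclc to Gclm was 3.33, 2.90 and 2.83 in the untreated libraries, 3.10, 3.10 and 2.90 in those at 2 µM and 3.32 and 3.56 in those at 10 µM. The 10 µM libraries lay above those at 2 µM (difference 0.41, exact permutation p = 0.2) and overlapped with those at 0 µM, where the first replicate was the highest (difference 0.42, exact permutation p = 0.4). Without that replicate the difference from 0 µM was 0.58.

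**Figure D2:**
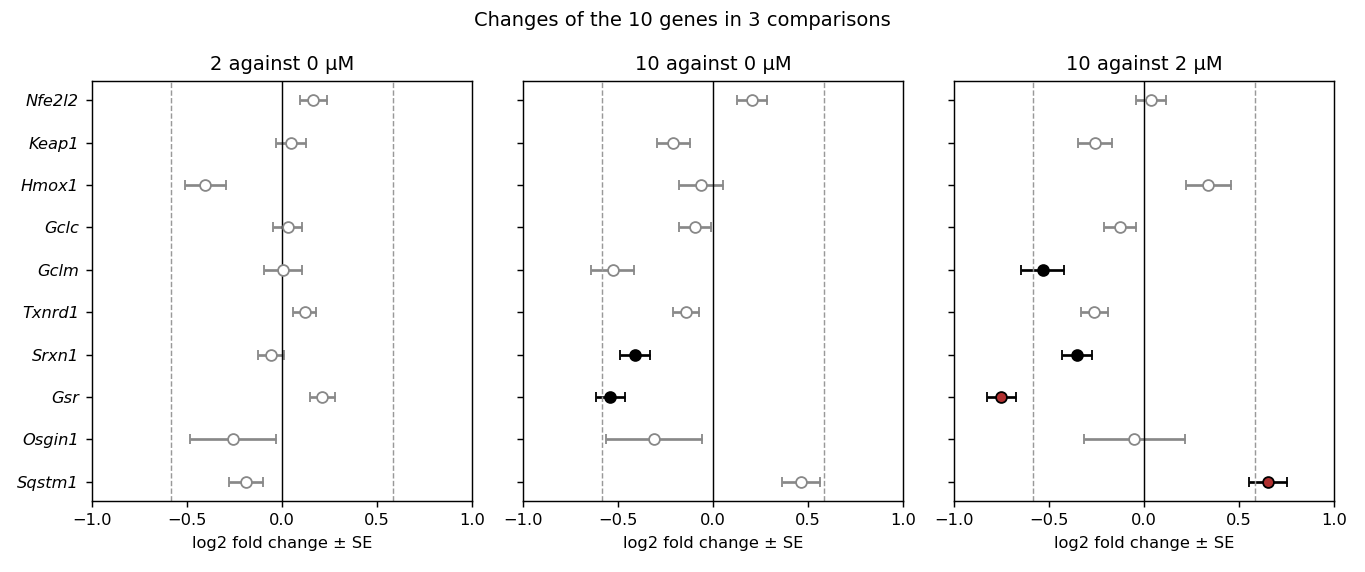
Log2 fold change ± SE (edgeR) of the 10 genes in the 3 comparisons, with broken lines at a fold change of 1.5 (0.585 on the log2 scale). Red points passed adjusted p and fold, black points passed adjusted p alone, and open points passed neither. Only Gsr (−0.75) and Sqstm1 (0.65) lie past both thresholds, for 10 against 2 µM.

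Glutathione and thioredoxin are kept reduced by NADPH-dependent reductases. Gsr (chromosome 8, 33652523 to 33698163, plus strand), which encodes glutathione reductase, was at 111, 103 and 112 CPM at 0 µM, 127, 121 and 129 CPM at 2 µM and 75.3 and 74.4 CPM at 10 µM. The 3 doses did not overlap, and the level was highest at 2 µM and lowest at 10 µM. At 2 µM the log2 fold change of 0.21 (SE 0.0663) did not pass (adjusted p = 0.0985). At 10 µM Gsr fell by 0.54 (SE 0.0758, adjusted p = 0.00103), or 1.45-fold, less than the minimum. Without the second 0 µM replicate the change was −0.60 and counted as called (adjusted p = 0.00275). Its adjusted p was 0.015 when the second 10 µM replicate was left out. Between 10 and 2 µM it fell by 0.75 (SE 0.0763, adjusted p = 8.28e-05), a fold change of 1.68, and it stayed called in all 16 alternative fits, at −0.62 to −0.80.

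Txnrd1 (chromosome 10, 82833951 to 82897712, plus strand), which encodes cytosolic thioredoxin reductase, was at 177, 176 and 179 CPM at 0 µM, 193, 187 and 198 CPM at 2 µM and 164 and 157 CPM at 10 µM. The doses did not overlap and lay in the same order as for Gsr, but the differences were smaller, at 0.12 (SE 0.062, adjusted p = 0.294) for 2 µM, −0.14 (SE 0.0696, adjusted p = 0.197) for 10 µM and −0.26 (SE 0.0699, adjusted p = 0.0201) for 10 against 2 µM, none past the threshold. Its untreated libraries were the closest of any of the 10 genes, with a coefficient of variation of 0.962%. The log2 ratio of Txnrd1 to Gsr was 0.67, 0.77 and 0.68 in the untreated libraries, 0.60, 0.62 and 0.615 in those at 2 µM and 1.13 and 1.08 in those at 10 µM. The 2 µM libraries lay below the untreated ones (difference −0.092, exact permutation p = 0.1, the smallest for 3 against 3), and the 10 µM libraries lay above all others (difference 0.40 from 0 µM and 0.49 from 2 µM, each with an exact permutation p of 0.2). All 3 had an adjusted p of 0.3 over the 9 ratio tests. In linear terms, there were 1.59 to 1.71 Txnrd1 counts for each Gsr count at 0 µM, 1.52 to 1.54 at 2 µM and 2.11 to 2.18 at 10 µM.

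Srxn1 (chromosome 2, 152105516 to 152111376, plus strand) encodes sulfiredoxin, which repairs over-oxidized peroxiredoxins. It was at 102, 96.5 and 94.8 CPM at 0 µM, 88.5, 98.3 and 94.6 CPM at 2 µM and 72.7 and 74.2 CPM at 10 µM. The 0 and 2 µM libraries overlapped, and both 10 µM libraries were lower than all of them. Srxn1 fell by 0.41 (SE 0.0774, adjusted p = 0.00601) from 0 µM and by 0.35 (SE 0.0776, adjusted p = 0.00805) from 2 µM, fold changes of 1.33 and 1.28 that are under the minimum. The pass against 0 µM held in 8 of 16 alternative fits. With total counts it was lost at −0.19 (adjusted p = 0.076), where the median of all tested genes was 0.231. It was also lost with the replicate block and in a fit of the pair of doses alone. The same held on leaving out the second or the third 0 µM, the second 2 µM or either 10 µM replicate. The pass against 2 µM held in 7 of 16. With total counts it was lost at −0.22 (adjusted p = 0.0563), where the median of all tested genes was 0.162. It was also lost with the block, and without any one library other than the first 0 µM replicate.

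**Figure D3:**
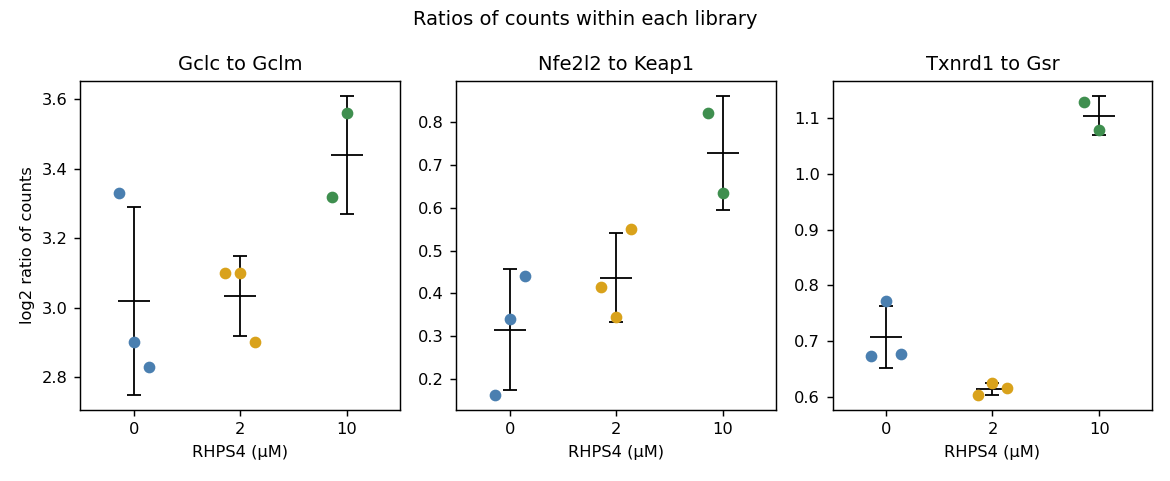
Log2 ratio of counts within each library for Gclc to Gclm, Nfe2l2 to Keap1 and Txnrd1 to Gsr, by RHPS4 dose. Each point is a library, lines are means and bars 1 SD (n = 3, 3 and 2), and the axes do not start at 0. The 10 µM libraries of Txnrd1 to Gsr lie at 1.08 and 1.13, above 0.60 to 0.77 in the others.

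Hmox1 and Osgin1 are widely used readouts of NRF2 activity. Hmox1 (chromosome 8, 75093621 to 75100589, plus strand) encodes heme oxygenase 1, which breaks down heme to biliverdin, iron and carbon monoxide. It was at 31.7, 34.0 and 38.9 CPM at 0 µM, 23.1, 27.4 and 28.9 CPM at 2 µM and 34.98 and 32.1 CPM at 10 µM. The 2 µM libraries lay below all others, and the 10 µM libraries fell among the untreated ones. The log2 fold change at 2 µM was −0.40 (SE 0.107), with an unadjusted p of 0.00297 and an adjusted p of 0.0589, and that of 10 against 2 µM was 0.34 (SE 0.119, adjusted p = 0.0613), so neither passed. At 10 µM the estimate was −0.064 (SE 0.117, adjusted p = 0.759).

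Osgin1 (chromosome 8, 119434124 to 119446256, plus strand) encodes a growth inhibitor induced by oxidative stress and was the least abundant of the 10, with 41 to 189 counts per library. It was at 4.26, 6.0 and 7.50 CPM at 0 µM, 4.05, 4.57 and 6.54 CPM at 2 µM and 4.21 and 5.83 CPM at 10 µM. All doses overlapped, and the coefficients of variation of 22.7% to 27.5% were the widest of the 10 genes. The estimates of −0.26 (SE 0.227, adjusted p = 0.548) and −0.31 (SE 0.253, adjusted p = 0.45) did not pass.

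Sqstm1 (chromosome 11, 50199366 to 50210827, minus strand) encodes p62, an autophagy receptor that binds KEAP1 and so links autophagy to NRF2. It was at 278.5, 228 and 233.5 CPM at 0 µM, 215.5, 214 and 218 CPM at 2 µM and 313 and 365 CPM at 10 µM. The doses did not overlap, with the lowest level at 2 µM and the highest at 10 µM, the reverse of the order of Gsr and Txnrd1. Between 10 and 2 µM it rose by 0.65 (SE 0.0986, adjusted p = 0.0011), a fold change of 1.57. Without the second 10 µM replicate, its highest library, the estimate was 0.50 (adjusted p = 0.0224) and the gene was no longer called. Against 0 µM the estimate was 0.46 (SE 0.0986, adjusted p = 0.0112) at 10 µM and −0.19 (SE 0.0895, adjusted p = 0.247) at 2 µM. The first 0 µM replicate was the highest untreated library, and without it the change at 10 µM was 0.53 with an adjusted p of 0.00136, still under the minimum fold. The Sqstm1 exons share 580 bases with Mrnip on the opposite strand, which is listed in the tables as 3010026O09Rik with at most 87 counts in any library, whereas Sqstm1 had at least 2445.

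Levels between genes were compared per kilobase (kb) of annotated exons in GENCODE, which takes every isoform together. At 0 µM the order was Gclc (85.6 ± 7.15 CPM per kb), Sqstm1 (73.5 ± 8.27), Gsr (39.5 ± 1.84), Srxn1 (34.65 ± 1.30), Txnrd1 (25.0 ± 0.241), Nfe2l2 (23.4 ± 1.07), Hmox1 (19.9 ± 2.12), Keap1 (15.2 ± 0.901), Gclm (6.33 ± 0.659) and Osgin1 (2.21 ± 0.608), each as the mean level ± SD of 3 libraries. Of the neighbours in that order only Gclc and Sqstm1 overlapped between libraries. At 10 µM Sqstm1, at 93.4 to 109 CPM per kb, was above Gclc, at 78.9 to 81.0. Gsr, Nfe2l2 and Srxn1 then lay together at 25.8 to 28.2 CPM per kb, where each overlapped with the next.

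The other genes of the pathway were taken as 4 lists of 49 genes in all, every one of which was tested. Those lists held 2 called genes at 2 µM, 3 at 10 µM and 6 for 10 against 2 µM, where 0.497%, 3.09% and 5.51% of all tested genes were called. Of the 4 genes that NRF2 shares with AhR, Nqo1 and Aldh3a1 were called higher at both doses and Ugt1a6a and Gsta1 at neither. The median log2 fold change of these 4 was 0.33 at 2 µM and 0.90 at 10 µM.

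Nqo1, which encodes a quinone reductase and is widely used to report NRF2 activity, was at 48.8, 38.3 and 38.3 CPM at 0 µM, 70.6, 69.5 and 71.7 CPM at 2 µM and 98.2 and 107 CPM at 10 µM. It rose at each dose with no overlap, by 0.77 (SE 0.0958, adjusted p = 0.0022) and 1.31 (SE 0.104, adjusted p = 1.91e-05). The call at 10 µM held in all 16 alternative fits, and the call at 2 µM was lost when either the second or the third 0 µM replicate or any one of the 2 µM libraries was left out (highest adjusted p = 0.0212). Aldh3a1, an aldehyde dehydrogenase, rose by 1.26 (SE 0.206, adjusted p = 0.00917) and 2.65 (SE 0.186, adjusted p = 9.71e-06), from 9 to 23 counts per library at 0 µM to 88 and 93 at 10 µM. Its call at 2 µM held in 6 of 15 alternative fits. It was lost with the replicate block, with only the groups compared in the fit, and without any one library other than the first 0 µM replicate, at adjusted p values of up to 0.0671.

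Among 22 other NRF2 targets, 0 were called at 2 µM, and DESeq2 also called 0. Of the 22, 6 had an unadjusted p under 0.05 at that dose, beside 21.3% of all tested genes. At 10 µM only Slc7a11 was called, with 12 estimates above 0, 10 below and a median of 0.051. Slc7a11 encodes the cystine transporter subunit that feeds glutathione synthesis and is also a target of the integrated stress response factor ATF4. It was at 36.1, 36.9 and 35.3 CPM at 0 µM, 37.6, 33.6 and 35.6 CPM at 2 µM and 129 and 123 CPM at 10 µM. The rise at 10 µM was 1.805 (SE 0.07615, adjusted p = 4.22e-07) from 0 µM and 1.82 (SE 0.0768, adjusted p = 1.76e-07) from 2 µM. Abcc4, an export pump, was higher at 10 µM by 0.57 (SE 0.115, adjusted p = 0.00804), under the minimum fold. Between 10 and 2 µM Gsta4, a glutathione transferase, rose by 0.60 (SE 0.1155, adjusted p = 0.00405) and Ptgr1, a reductase of prostaglandins and reactive aldehydes, by 0.59 (SE 0.12, adjusted p = 0.00578), while 0 of the 22 were called lower. Both lie close to the minimum fold, and the call of Gsta4 held in 6 of 16 alternative fits and that of Ptgr1 in 2 of 16. DESeq2 called 1 of the 22, Slc7a11, and neither of these genes (0.56 with an adjusted p of 8.36e-05 for Gsta4, 0.545 with 0.0117 for Ptgr1). Neither was called with the replicate block or with no filter on low counts. Gsta4 was not called without either 10 µM replicate, without any one of the 2 µM libraries or without the first or second 0 µM replicate. Ptgr1 was not called with RLE factors, with TMM from nuclear genes, with only the groups compared or without any one library.

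**Figure D4:**
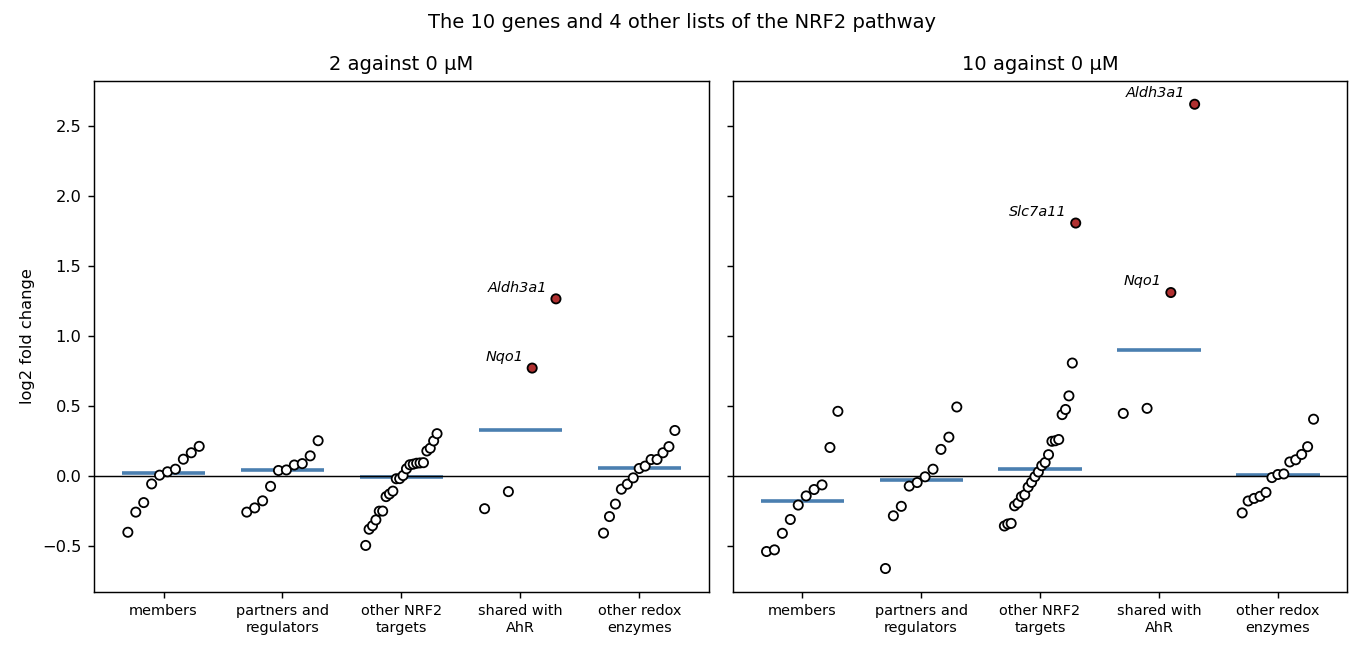
Log2 fold change of the 10 genes and of 4 other lists of the NRF2 pathway at 2 and 10 µM RHPS4 against 0 µM. Each point is a gene, in order of size within its list, blue lines are medians and red points passed adjusted p and fold. Aldh3a1 and Nqo1 are called at both doses, Slc7a11 at 10 µM, and no member at either.

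The list of 10 partners and regulators of NRF2, with the CUL3 ligase, small MAF proteins, BACH1 and other factors, had 0 called genes at either dose against 0 µM in edgeR, while DESeq2 called 0 at 2 µM and 1 at 10 µM. At an unadjusted p under 0.05 there were 3 and 4, beside 21.3% and 29.4% of all tested genes. Between 10 and 2 µM Nfe2l1, a relative of Nfe2l2 that controls proteasome genes, rose by 0.67 (SE 0.0718, adjusted p = 0.000125). It was at 143, 145 and 149.5 CPM at 2 µM and 237 and 227 CPM at 10 µM. Against 0 µM, where its libraries were at 157, 168 and 169.8 CPM, it was higher by 0.49 (SE 0.0717, adjusted p = 0.00132), under the minimum fold. Maff, a small MAF protein, was lower at 10 than at 0 µM by 0.66 (SE 0.139, adjusted p = 0.0102), past the minimum fold alone. Between 10 and 2 µM it fell by 0.70 (SE 0.14, adjusted p = 0.00514), from 13.8, 17.6 and 13.6 CPM to 9.04 and 9.35 CPM. It was not called with total counts or without the second 2 µM or either 10 µM replicate, at adjusted p values of up to 0.0272. Of the 13 other glutathione, thioredoxin and peroxide enzymes, such as superoxide dismutases, catalase and glutathione peroxidases, 0 were called in any comparison by edgeR or DESeq2. At 2 µM, at 10 µM and for 10 against 2 µM, 3, 2 and 2 had an unadjusted p under 0.05. The shares of all tested genes were 21.3%, 29.4% and 36.5%. The smallest p of this list was that of Txnrd3 at 10 µM, 0.40 (SE 0.113, adjusted p = 0.0354).

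The genes whose levels ran most like those of the called members were found from the root mean square difference of log2 CPM over the 8 libraries, each gene set to its mean at 0 µM, among 8974 genes with a mean of at least 10 CPM. For Gsr these were Ddx21 (0.0345), which encodes an RNA helicase of ribosome biogenesis, Fastkd5 (0.0569), a mitochondrial RNA-processing protein, and Bmper (0.0618), a BMP-binding protein, where the median over all genes compared was 0.322. Ddx21 was at mean levels of 307, 362 and 208 CPM at 0, 2 and 10 µM. For Sqstm1 they were Auh (0.0472), a mitochondrial enzyme of leucine breakdown, Ifi27 (0.0518), an interferon-induced gene, and Gsta4 (0.057), with a median of 0.337 over all genes. The mean levels of Auh were 19.1, 16.4 and 26 CPM, and those of Ifi27 were 60.4, 53.6 and 85.8 CPM. Gsta4, at 1142, 1044 and 1585 CPM, was the only one of the 6 among the pathway lists.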

How the data were processed

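RNA-Seq was performed on MEF cells at 3 doses of RHPS4, 8 libraries in all. Per the submitters' processing notes and the study's methods, the authors trimmed the reads (Trim Galore, cutadapt), aligned them to mm10 with STAR 2.5.2a and ran featureCounts to count the fragments that mapped uniquely to each gene. The deposited values are these whole-number counts, without normalization. The annotation and the strand setting used for counting are not given in the sources used here. The total counts of the libraries are given above. Replicates of a dose differed by a chi-square of at least 3.23 per degree of freedom, more than sampling noise, so none was counted as a library deposited again. This does not show that they came from separate cultures.

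The fit used edgeR 4.0.16 in R 4.3.3, with filterByExpr, TMM factors and the quasi-likelihood functions glmQLFit and glmQLFTest. It held all 8 libraries and dose as a single factor, p values were adjusted by Benjamini-Hochberg, and the thresholds were the study's. The SE is the log2 fold change divided by the square root of F. Ratios added 0.5 to each count, and levels compared for likeness used a prior count of 2. Positions and exon lengths came from GENCODE M21 (GRCm38), promoters from RefSeq (GRCm38.p6). Other steps used Python 3.11.15 with scipy 1.17.1. The fits were tested on simulated counts with 200 changes of 2-fold between 10 and 0 µM. Of these edgeR recovered 143 and DESeq2 140, each with 1 false call, so some changes of that size are missed.

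Named are all 10 members, each pathway gene past the thresholds in any comparison (in a list without one, that with the smallest p), and the 3 genes most like each called member. Abcc4, which passed the adjusted p alone, Ugt1a6a and Gsta1, the other members of their list, and the markers Pdgfrb and Tubb3 were named after their values were seen. The members and lists were chosen with earlier results of these data known. Alternatives were RLE size factors, total counts, TMM from nuclear genes, no filter, DESeq2 1.42.0, a minimum of 10 counts in every library, no minimum fold, a block for the replicate number, a fit of only the 2 groups compared, each library left out in turn and a pseudocount of 5 for ratios.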

Additional observations from a re-analysis of the deposited data

How the results depend on the processing

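Of the fold changes of the 10 genes over 3 comparisons and 17 alternatives, 483 kept their direction and their side of the thresholds, 7 gained a call, 1 lost it and 19 changed sign, all 19 from estimates that had not passed. The alternative with no minimum fold reused the estimates of the main fit, so it could change no sign and lose no call. Under it, Gsr and Srxn1 at 10 µM and Gclm and Srxn1 for 10 against 2 µM gained calls through the dropped minimum alone. With total counts the sign turned for Keap1, Hmox1, Gclc and Txnrd1 at 10 µM (0.0092, 0.15, 0.12 and 0.074), Srxn1 at 2 µM (0.025), and Gclc and Osgin1 for 10 against 2 µM (0.0089 and 0.085). For Nfe2l2 at 10 against 2 µM it turned with no filter on low counts (−0.0059) and with DESeq2 (−0.0021). Leaving out single libraries gave −0.069 to 0.068 for Nfe2l2 and −0.33 to 0.18 for Osgin1 at 10 against 2 µM, −0.16 to 0.030 for Hmox1 at 10 µM, and −0.0058 to 0.107 for Gclc and −0.060 to 0.068 for Gclm at 2 µM.

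Of the 10 genes, the number called at 10 µM was 1 with total counts (Sqstm1), 2 with no minimum fold and 0 to 1 with single libraries left out, where the call came from Gclm without the first 0 µM replicate and from Gsr without the second. For 10 against 2 µM it was 4 with no minimum fold and 1 to 2 with libraries left out. Pathway genes called at 2 µM fell from 2 to 1 with at least 10 counts in every library, where Aldh3a1 was not tested, and with only the 2 groups compared, and to between 0 and 2 with libraries left out. At 10 µM they were 10 with total counts and 5 with no minimum fold, and for 10 against 2 µM 3 to 5 in place of 6 with libraries left out, with 3 for the second 2 µM and for either 10 µM replicate. Calls with total counts at 10 µM are read beside a median of 0.231, with 846 of all tested genes called higher and 68 lower. Where leaving out a library left a single 10 µM library, it was assumed to vary like the other groups.

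The replicate numbers were not taken to pair the libraries, and the main fit held no block for them. Same-numbered 0 and 2 µM libraries deviated together by r = 0.199, 0.0845 and 0.161, above −0.154 to 0.0584 for differently numbered ones. Same-numbered libraries gave −0.145 and −0.105 for 0 and 10 µM, and −0.0212 and −0.061 for 2 and 10 µM. Whether the numbers pair the libraries is thus not settled. With the replicate block, 0 of the 30 member results changed their call, Hmox1 at 10 µM was 0.023 and Osgin1 at 10 against 2 µM 0.20, and the pathway genes called were 1 at 2 µM, 3 at 10 µM and 4 for 10 against 2 µM, where Gsta4 and Ptgr1 lost their calls. Gclm (10 against 2 µM) and Srxn1 (both comparisons with 10 µM) no longer passed the adjusted p, at 0.0181, 0.0162 and 0.0163. Over all genes the block gave 54, 322 and 735 calls. No group held the 4 to 10 libraries that a check for outlying samples needs.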
